A study of Mus musculus with 6 samples.

Results

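The secreted phospholipase Pla2g5, the carboxylesterase Ces1d, the fatty acid transporter Slc27a1 and the prostaglandin transporter Slco2a1 are genes of lipid hydrolysis, lipid uptake and prostaglandin transport. They are 4 of 617 genes listed for the right ventricle (RV) of newborn mice after pulmonary artery banding (PAB). They were chosen by their difference between PAB and sham in the same 6 libraries that are described here, so their group differences are given as a description, with no test. In PAB a band narrows the pulmonary artery, so that the RV ejects against a raised pressure. C57/BL6J mice of genotype WT had PAB or sham surgery on postnatal day 1, the sham mice going through the procedure without a band. RV tissue of both groups was taken on postnatal day 7, and its total RNA gave 3 libraries for sham and 3 for PAB. The labels do not say whether a library holds 1 mouse or several, so the spread between libraries need not be the spread between mice.

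Phospholipases A2 release fatty acids, among them arachidonic acid, from membrane phospholipids, and carboxylesterases of the Ces1 family hydrolyse triglycerides and other esters. Fatty acid transport proteins carry long-chain fatty acids into cells, where the heart uses them as fuel after birth. Arachidonic acid is also the source of prostaglandins, which act through receptors and are cleared from the extracellular space by a transporter.

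Values are reads per gene divided by 1 size factor per library, called normalized reads. The size factor was smallest in PAB replicate 1, at 0.939, and largest in sham replicate 2, at 1.07, so 1 read was worth between 0.935 and 1.07 normalized reads. Log2 fold changes are on the scale log2(value + 1), which holds down the change of genes with low values. The whole table is a selection: all 617 genes (100%) passed an adjusted p of 0.05 in limma, and the smallest absolute log2 fold change was 0.92. In 97.1% of the listed genes the PAB and sham values did not overlap. Every PAB value lay below every sham value in 52.5% of the listed genes, and above it in 44.6%. Among the 4 members, 3 lay below sham in this way and 1 lay above. With median-ratio scaling over the listed genes, 288 listed genes lay above sham in this way and 262 below. That scaling takes most genes as unchanged, which cannot hold in a table without small changes, so its values show dependence on scaling only. Since the contrast chose both the table and the members, nothing is read from these shares.

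Pla2g5 encodes the group V secreted phospholipase A2, which cleaves phospholipids outside the cell and in its vesicles. It had 366, 331 and 383 normalized reads in sham replicates 1, 2 and 3, and 10.7, 17.9 and 26.8 in PAB replicates 1, 2 and 3. The sham libraries lay close together, all PAB libraries were far below them, and the groups did not overlap. The mean fell from 360.0 ± 26.4 (SD, n = 3) to 18.4 ± 8.10 (SD, n = 3), which left 5.12% of the sham level. The log2 fold change was -4.30 (standard error 0.34). The lowest PAB library rests on 10 reads and the highest on 27. PAB libraries differed among themselves by a factor of 2.52 between the highest and the lowest, and sham libraries by 1.16. In bulk tissue, fewer cells of a type and less RNA per cell cannot be told apart.

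Of 26 symbols of phospholipases A2 and related enzymes, 3 were listed, 2 of them lower and 1 higher in PAB. Genes that are not listed were not analysed here, and they are not taken to be silent or unchanged. Pla2g4e, a calcium-dependent cytosolic enzyme of the same superfamily, had 120.1, 86.0 and 70.3 normalized reads in sham and 12.8, 23.8 and 33.8 in PAB, for replicates 1, 2 and 3. It was lower in each PAB library than in any sham library, with a log2 fold change of -1.99 (standard error 0.41). Pla2g4a encodes the cytosolic phospholipase A2 that prefers arachidonic acid, and it moved the other way. Its normalized reads were 69.0, 59.9 and 70.3 in sham and 135.3, 148.8 and 125.2 in PAB. The PAB libraries were all above the sham libraries and close to one another, with a log2 fold change of 1.03 (standard error 0.26).

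Per kilobase of gene length, the order of Pla2g5 and Pla2g4a turned between the groups. In sham, Pla2g5 had 124.8 ± 9.15 (SD, n = 3) normalized reads per kilobase and Pla2g4a had 10.4 ± 0.891 (SD, n = 3). In PAB, Pla2g5 had 6.39 ± 2.81 (SD, n = 3) normalized reads per kilobase and Pla2g4a had 21.3 ± 1.85 (SD, n = 3). The ratio of Pla2g4a to Pla2g5 per kilobase was 0.0851, 0.0816 and 0.0828 in sham replicates 1, 2 and 3. It was 5.73, 3.76 and 2.11 in PAB replicates 1, 2 and 3, so Pla2g5 RNA led in every sham library and Pla2g4a RNA in every PAB library. The gene lengths sum the exons of 9 annotated transcripts for Pla2g5 and 6 for Pla2g4a. A level per kilobase is thus low where a shorter transcript prevails. The ratio of Pla2g4e to Pla2g5 per kilobase lay between 0.0761 and 0.136 in sham and between 0.497 and 0.552 in PAB. Both genes were lower in PAB, Pla2g5 by more than Pla2g4e.

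Ces1d encodes a carboxylesterase that is known as a triglyceride hydrolase of adipose tissue and liver. Its normalized reads were 18.0, 24.3 and 16.8 in sham replicates 1, 2 and 3, and 0 in each of the 3 PAB replicates. The sham values stand for 19, 26 and 16 reads, low but present in each library, and the groups did not overlap. Against a floor of 3 reads per library, which is 3.05 normalized reads over the PAB libraries, PAB was at least 6.45-fold lower than the sham mean of 19.7 ± 4.05 (SD, n = 3). The fitted log2 fold change of -4.35 (standard error 0.70) depends on the pseudocount and is no bound. With a pseudocount of 0.1 it was -7.61 and with a pseudocount of 3 it was -2.90. Floors cover counting error only. Of 42 symbols of carboxylesterases and lipases, Ces1d was the 1 gene listed. The Ces1 genes Ces1a to Ces1h lie together on chromosome 8 between 93020214 and 93379725, and of these 8 genes the other 7 were not analysed here. Of 11 adipocyte markers 0 were listed, so their levels were not analysed here and a part of adipose tissue in the sham value of Ces1d was not tested.

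Slc27a1 encodes fatty acid transport protein 1, which takes up long-chain fatty acids and couples them to coenzyme A. It had 2275, 1996 and 1889 normalized reads in sham replicates 1, 2 and 3, and 854, 851 and 887 in PAB replicates 1, 2 and 3. The PAB libraries were nearly equal, each was below every sham library, and the groups did not overlap. The mean fell from 2053 ± 199.7 (SD, n = 3) to 864 ± 20.0 (SD, n = 3), which left 42.1% of the sham level, with a log2 fold change of -1.24 (standard error 0.21). The coefficient of variation was 9.72% in sham and 2.32% in PAB. In PAB the highest library exceeded the lowest by a factor of 1.04, against 2.52 for Pla2g5. Of 27 symbols of fatty acid uptake, binding and activation, Slc27a1 was the 1 gene listed. Among the 327 listed genes that were lower in PAB the median log2 fold change was -1.45, so Slc27a1 fell by less than the median of these. With median-ratio scaling over the listed genes its log2 fold change was -0.65.

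**Figure D1:**
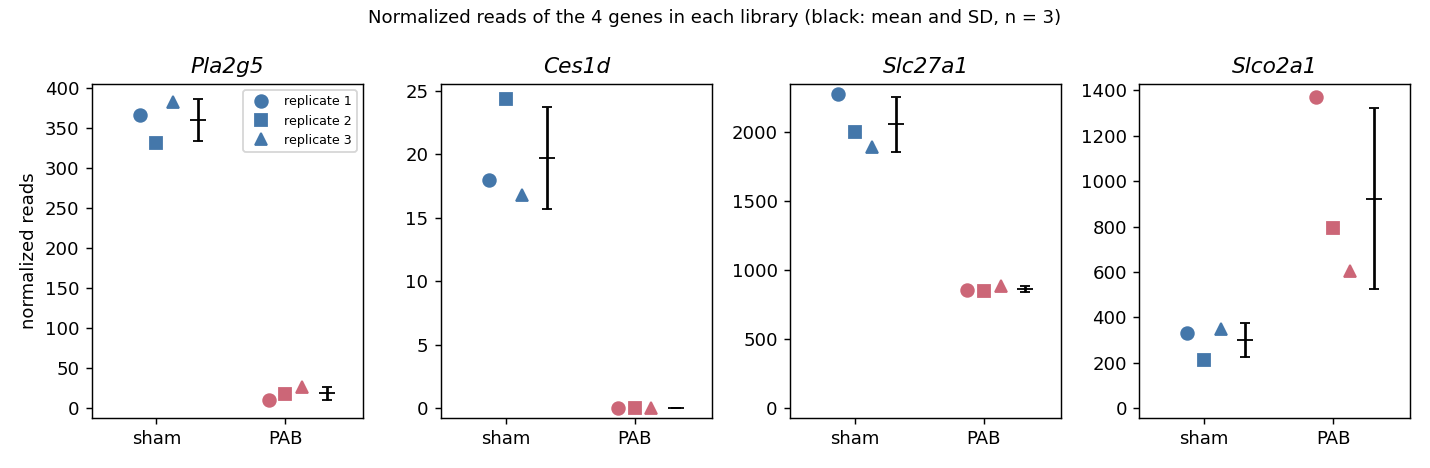
Normalized reads (vertical axis, linear, a scale of its own for each gene) of Pla2g5, Ces1d, Slc27a1 and Slco2a1 in the sham and PAB libraries. Each symbol is a library, its shape gives the replicate, and the black mark and bar are the mean and SD (n = 3). Pla2g5, Ces1d and Slc27a1 were lower in each PAB library than in any sham library, and Slco2a1 was higher.

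Downstream of uptake, 4 of 49 symbols of mitochondrial and peroxisomal fatty acid oxidation were listed, 3 lower and 1 higher in PAB. The median log2 fold change of the 3 lower genes was -1.16, against -1.45 over the 327 lower genes of the table. A median over both directions, -1.11 for these 4 genes and -1.03 for all 617, mostly reflects how many genes were lower, since the table holds no small changes. Ucp3 encodes an uncoupling protein of the inner mitochondrial membrane that is induced by fatty acids. It had 877, 1085 and 1024 normalized reads in sham and 326, 332 and 439 in PAB. All PAB libraries were below the sham libraries, and the log2 fold change was -1.45 (standard error 0.23), or -0.86 with median-ratio scaling. Etfb, the beta subunit of the flavoprotein that takes electrons from acyl-CoA dehydrogenases, had a log2 fold change of -1.16 (standard error 0.29). With median-ratio scaling the log2 fold change of Etfb was -0.56. Of its 1164 exonic bases, 678 overlap other annotated genes, so its reads may be shared and its value is uncertain.

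The nuclear receptor genes of that list differed in direction. Rxrg, which encodes the gamma form of the retinoid X receptor, had 367, 434 and 473 normalized reads in sham and 162.9, 206.3 and 248.4 in PAB. It was lower in every PAB library, with a log2 fold change of -1.05 (standard error 0.25) that became -0.46 with median-ratio scaling. Pparg, which encodes a receptor that pairs with retinoid X receptors, had 155.1, 135.6 and 141.6 normalized reads in sham and 372.8, 275.7 and 218.6 in PAB. It was higher in every PAB library, with a log2 fold change of 0.97 (standard error 0.27) that became 1.56 with median-ratio scaling. Per kilobase, Rxrg was above Pparg in sham, with 184.9 ± 23.3 against 48.8 ± 3.38 normalized reads per kilobase (SD, n = 3). In PAB they had 89.6 ± 18.6 and 97.9 ± 26.4 normalized reads per kilobase (SD, n = 3), a difference smaller than the spread between libraries.

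Of 53 symbols of triglyceride, lipid droplet, fatty acid and sphingolipid synthesis, 3 were listed, 2 lower and 1 higher. Fitm1 encodes a protein of the endoplasmic reticulum that promotes lipid droplets in muscle. It had 2205, 2125 and 1949 normalized reads in sham and 339, 573 and 713 in PAB, with -2.01 as its log2 fold change (standard error 0.29). Scd4, a stearoyl-CoA desaturase of the heart, had 1443, 1549 and 1758 normalized reads in sham and 312, 288 and 451 in PAB, with -2.20 as its log2 fold change (standard error 0.25). Both were lower in each PAB library than in any sham library. With median-ratio scaling the log2 fold changes of Fitm1 and Scd4 became -1.42 and -1.60. Acer2, an alkaline ceramidase of the Golgi, had 494, 378 and 445 normalized reads in sham and 1692, 979 and 577 in PAB. It was higher in PAB, most of all in replicate 1, with a log2 fold change of 1.17 (standard error 0.35). Its log2 fold change with median-ratio scaling was 1.77.

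Slco2a1 encodes the prostaglandin transporter, which carries prostaglandins into cells, where they are oxidised. It had 332, 212.3 and 350.3 normalized reads in sham replicates 1, 2 and 3, and 1371, 793 and 606 in PAB replicates 1, 2 and 3. PAB replicate 1 was the highest, the lowest PAB library was above the highest sham library, and the groups did not overlap. The sham mean was 298.2 ± 74.9 (SD, n = 3) and the PAB mean 923 ± 398.6 (SD, n = 3), higher by a factor of 3.10, with a log2 fold change of 1.58 (standard error 0.33). Without PAB replicate 1 the log2 fold change was 1.25, and with median-ratio scaling over the listed genes it was 2.17. Of 15 symbols of the SLCO family of organic anion transporters, Slco2a1 was the 1 gene listed.

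Of 49 symbols of prostaglandin and eicosanoid synthesis, breakdown, transport and reception, 3 were listed, each of them with higher values after PAB, against 290 of the 617 genes of the table (47.0%). Slco2a1 is 1 of the 3 and was itself chosen by this contrast. With median-ratio scaling over the listed genes, 290 of the 478 genes past the adjusted threshold were higher (60.7%). Ptgs2 encodes the inducible cyclooxygenase, which makes the precursor of prostaglandins from arachidonic acid. It had 2.84, 7.48 and 6.29 normalized reads in sham and 51.1, 17.9 and 16.9 in PAB. The sham values are a few reads each, the PAB values are higher in each library and highest in replicate 1, and the log2 fold change was 2.07 (standard error 0.59). Cysltr1, a receptor for cysteinyl leukotrienes, had 60.5, 60.8 and 30.4 normalized reads in sham and 197.0, 99.2 and 89.4 in PAB. Its groups did not overlap, and its log2 fold change was 1.30 (standard error 0.40).

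Over the 7 lists together, 15 of 260 symbols were listed, 9 lower and 6 higher in PAB. Without the 4 members, 11 were listed, 6 lower and 5 higher. The median log2 fold change was -1.72 over these 6 lower genes and 1.17 over the 5 higher genes, against -1.45 over the 327 lower and 1.45 over the 290 higher genes of the table. Of the 5 higher genes, Ptgs2, Cysltr1, Acer2 and Pparg were highest in PAB replicate 1, and Pla2g4a was highest in PAB replicate 2.

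**Figure D2:**
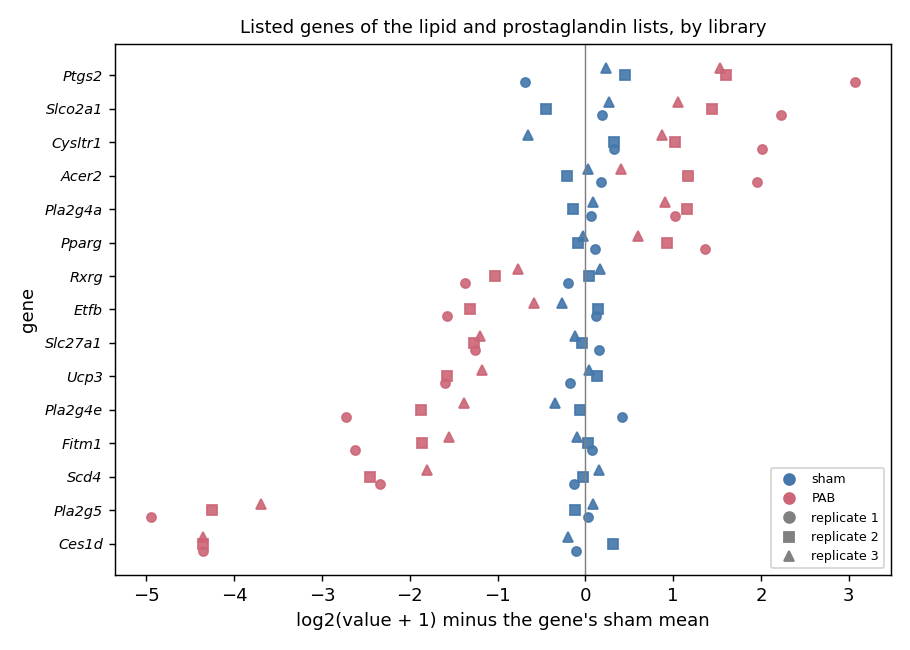
Each row is a listed gene of the lipid and prostaglandin lists, and the horizontal axis is log2(value + 1) in a library minus the mean of the gene's 3 sham libraries. Colours mark sham and PAB and shapes mark the replicate. By the mean of the PAB libraries, 9 genes were lower, from Ces1d at -4.35 and Pla2g5 at -4.30 to Rxrg at -1.05. Ces1d, at 0 reads in PAB, is placed by the pseudocount. The other 6 genes were higher, from Pparg at 0.97 to Ptgs2 at 2.07.

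Per kilobase of gene length, the order of the members was the same in the 3 sham libraries. Slc27a1 led with 351.9 ± 34.2 normalized reads per kilobase (SD, n = 3), before Pla2g5 with 124.8 ± 9.15. Slco2a1 followed with 22.0 ± 5.53 normalized reads per kilobase and Ces1d with 8.31 ± 1.71 (SD, n = 3), and each gap was larger than the spread between libraries. In each PAB library Slc27a1 still led, with 148.1 ± 3.43 normalized reads per kilobase (SD, n = 3). Slco2a1 came next with 68.2 ± 29.4, Pla2g5 followed with 6.39 ± 2.81 and Ces1d was at 0. Pla2g5 and Slco2a1 thus changed places. The gene length of Slco2a1, 13545 bases, sums the exons of 4 annotated transcripts, so its level per kilobase is low where a shorter transcript prevails.

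Nppa and Nppb encode natriuretic peptides that rise in a loaded ventricle and were taken as a measure of load in each library. Nppa had 238.3, 192.6 and 191.9 normalized reads in sham and 21964, 9218 and 4995 in PAB replicates 1, 2 and 3. Nppb had 2802, 2235 and 2318 normalized reads in sham and 17262, 11468 and 11519 in PAB. PAB replicate 1 was highest in both, and replicates 2 and 3 were apart in Nppa and nearly equal in Nppb. Of the 865 exonic bases of Nppa, 532 overlap an antisense gene, so part of its reads may belong there.

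Pla2g5 was lowest in the PAB library with the most Nppa and highest in the PAB library with the least. Of the 327 listed genes that were lower in PAB, 137 (41.9%), Pla2g5 among them, had this order opposite to Nppa. Slco2a1 followed the order of Nppa. Apart from Nppa, 289 listed genes were higher in PAB, and 198 of these (68.5%), Slco2a1 among them, had that order. Slc27a1 was nearly the same in all PAB libraries, whatever their Nppa, and Ces1d was at 0 in each. With 3 PAB libraries these orders are a description, and whether load moved with the members was not tested.

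Of 10 cardiomyocyte markers, the gene Pln was listed, at 21385, 21925 and 27039 normalized reads in sham and 9037, 10319 and 12438 in PAB. It encodes phospholamban, a regulator of the calcium pump, and was lower in each PAB library, but 1785 of its 2759 exonic bases overlap genes on the opposite strand. Of 14 endothelial markers, the gene Vwf was listed, at 1488, 1334 and 1283 normalized reads in sham and 4792, 3251 and 1637 in PAB. Vwf was highest in PAB replicate 1 and lowest among the PAB libraries in replicate 3. Of the 289 listed genes higher in PAB other than Nppa, 198 (68.5%) had this order, Slco2a1 among them. Of 5 endocardial markers, Cytl1 was listed, at 86.1, 81.4 and 75.5 normalized reads in sham and 21.3, 45.6 and 32.8 in PAB. Of 12 fibroblast markers, Dpt was listed, at 4720.3, 4759 and 4649 normalized reads in sham and 1487, 2281 and 2511 in PAB. Of 10 macrophage markers, C1qa was listed, at 666, 700.4 and 643 normalized reads in sham and 312, 270.7 and 347 in PAB. These 3 genes were lower in each PAB library than in any sham library. Of 8 markers of smooth muscle and pericytes, Cnn1 was listed and was higher, at 122.0, 105.7 and 121.7 normalized reads in sham and 681, 289 and 372 in PAB.

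Each of these lists has 1 listed gene, which was above 0 in all 6 libraries, and the summed level of a whole list was not analysed here. Of 5 atrial markers, Nppa and Kcnj3 were listed. Kcnj3, a potassium channel subunit, had 205.2, 174.9 and 208.7 normalized reads in sham and 32.0, 36.7 and 68.5 in PAB, while Nppa rose. Of its 5215 exonic bases, 1621 overlap an antisense gene. The sum of both atrial markers was 444, 368 and 401 normalized reads in sham and 21996, 9255 and 5063 in PAB. Per kilobase, Nppa was the more abundant of them in sham too, with 240.0 ± 30.7 against 37.6 ± 3.57 normalized reads per kilobase (SD, n = 3). Of the 6 lung epithelium and 6 erythroid markers 0 were listed. Listed markers thus moved in both directions, and their part in the values of the 4 members was not tested.

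The listed genes nearest to each member were those with the smallest root mean square difference in log2(value + 1), each taken relative to its own sham mean, over the 6 libraries. A likeness of such genes to the member in these libraries is what chose them. For Pla2g5 they were 2010001K21Rik (0.314), Cacng6 (0.333) and Ces1d (0.425). For Ces1d they were Pla2g5 (0.425), 2010001K21Rik (0.583) and Dbh (0.605). Cacng6 encodes a calcium channel gamma subunit, and its normalized reads were 77.6, 77.6 and 126.9 in sham and 1.07, 4.96 and 4.97 in PAB. Dbh encodes dopamine beta-hydroxylase, which makes noradrenaline, and it had 122.0, 150.6 and 99.6 normalized reads in sham and 8.52, 5.95 and 13.9 in PAB. 2010001K21Rik had 32.2, 24.3 and 27.3 normalized reads in sham and 0, 0 and 1.99 in PAB, and 1292 of its 3630 exonic bases overlap an antisense gene, so its values are uncertain. These genes share a near loss of reads in PAB.

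For Slc27a1 the nearest genes were Hcn2 (0.0856), Kcnh2 (0.0972) and mt-Tg (0.113). Hcn2, a pacemaker channel, had 1100, 985 and 1007 normalized reads in sham and 432, 481 and 466 in PAB. Kcnh2, a channel of the rapid delayed rectifier potassium current, had 2150, 1975 and 1911 normalized reads in sham and 868, 794 and 753 in PAB. Both fell by about as much as Slc27a1 and were even across the PAB libraries. The mitochondrial glycine tRNA gene mt-Tg had 74.7, 55.2 and 56.6 normalized reads in sham and 23.4, 21.8 and 26.8 in PAB, again with no overlap. For Slco2a1 the nearest genes were Wnt11 (0.146), Atp7a (0.159) and Svep1 (0.176). Wnt11, a secreted signal of the Wnt family, had 65.3, 33.7 and 52.4 normalized reads in sham and 225.8, 136.9 and 88.4 in PAB. Atp7a, a copper pump, had 33.1, 16.8 and 27.3 normalized reads in sham and 129.9, 70.4 and 43.7 in PAB. Svep1, an extracellular matrix protein, had 362, 278 and 332 normalized reads in sham and 1482, 777 and 577 in PAB, and 2244 of its 16117 exonic bases overlap an antisense gene. Their lowest sham value in replicate 2 and highest PAB value in replicate 1, as in Slco2a1, follow from their choice by pattern. With a pseudocount of 0.1, all 3 nearest genes of Slco2a1 were shared, 2 of 3 for Slc27a1, and 1 of 3 for each of Pla2g5 and Ces1d. Since Ces1d was at 0 in PAB, its distances depend on the pseudocount, and with 0.1 Pla2g5 and Ces1d were no longer among the nearest genes of each other.

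Coordinates are those of the table, which for the 4 members equal GENCODE on GRCm38 (mm10). Pla2g5 (ENSMUSG00000041193) lies on the minus strand at chr4:138799244-138863482, in 9 merged exons of 2884 bases. Ces1d (ENSMUSG00000056973) lies on the minus strand at chr8:93166068-93197838, with 2369 bases in 14 merged exons. Slc27a1 (ENSMUSG00000031808) is on the plus strand at chr8:71568882-71587302, with 5835 bases in 14 merged exons. Slco2a1 (ENSMUSG00000032548) is on the plus strand at chr9:102988712-103096002, with 13545 bases in 18 merged exons. All 4 are annotated as protein coding. The exons of Pla2g5, Ces1d and Slc27a1 overlap 0 bases of other genes, and 104 bases of the Slco2a1 exons lie across from a gene on the other strand. Stretches of at least 100 bases at 95% identity or more occur in 1 other gene for Ces1d (longest 121 bases), in 47 for Slc27a1 (longest 167) and in 118 for Slco2a1 (longest 130), and in 0 for Pla2g5.

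To show the sequence before the members' annotated starts, the 250 bases before each start in RefSeq were searched on both strands for 4 short motifs. These were AGGTCA, the core bound by many nuclear receptors, ACGTG, the core of the hypoxia response element, CATTCC, the M-CAT element, and TATAAA, the TATA box. Of all 32851 promoter windows of that length, 14.0% held AGGTCA, 16.6% ACGTG, 12.6% CATTCC and 12.4% TATAAA. RefSeq promoters were matched for 3 of the 4 members, Pla2g5, Slc27a1 and Slco2a1, with 6 windows. AGGTCA was in 1 of these 6 windows, ACGTG in 1, CATTCC in 3 and TATAAA in 1. The TATAAA match is in the Slco2a1 window, at chr9:103008237-103008486 on the plus strand, which lies inside the annotated gene with all 250 bases in its exons. Over the 13 of 15 listed genes of the lists with a promoter, AGGTCA was in 6 of 20 windows, among them windows of Ucp3 and Rxrg, which were lower in PAB, and of Pparg and Pla2g4a, which were higher. In the same 20 windows ACGTG was in 1, CATTCC in 4 and TATAAA in 3. A match describes letters in a window and is no sign of binding.

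Of the windows of Pla2g5 and Slc27a1, 3 that hold a match and lie outside exons but for at most 13 bases are shown, each on GRCm38.p6 and read 5′ to 3′ on the strand of its gene, with matches in capitals. The Pla2g5 window at chr4:138863470-138863719 on the minus strand lies before the outermost start, with its last 13 bases in the annotated exon. It holds CATTCC, and the run GACTGTGGACCGGAT occurs in it 5 times. The Pla2g5 window at chr4:138819258-138819507 on the minus strand lies within an intron and holds TGACCT, which is AGGTCA on the other strand, and GGAATG, which is CATTCC on the other strand. The Slc27a1 window at chr8:71570344-71570593 on the plus strand is also intronic and holds CACGTG, in which ACGTG overlaps its own match on the other strand. The window before the outermost start of Slc27a1, at chr8:71568621-71568870, holds 0 matches to the 4 motifs and is not shown.
Pla2g5 outer start: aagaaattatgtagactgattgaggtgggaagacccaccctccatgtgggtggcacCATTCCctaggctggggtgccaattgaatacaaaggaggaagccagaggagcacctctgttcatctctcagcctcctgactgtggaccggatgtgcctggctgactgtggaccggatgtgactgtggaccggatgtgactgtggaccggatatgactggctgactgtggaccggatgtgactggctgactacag
Pla2g5 inner start: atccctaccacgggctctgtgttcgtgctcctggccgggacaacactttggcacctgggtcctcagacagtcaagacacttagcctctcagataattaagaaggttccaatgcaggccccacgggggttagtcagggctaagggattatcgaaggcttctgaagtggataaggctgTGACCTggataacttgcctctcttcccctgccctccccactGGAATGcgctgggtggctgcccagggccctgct
Slc27a1 inner start: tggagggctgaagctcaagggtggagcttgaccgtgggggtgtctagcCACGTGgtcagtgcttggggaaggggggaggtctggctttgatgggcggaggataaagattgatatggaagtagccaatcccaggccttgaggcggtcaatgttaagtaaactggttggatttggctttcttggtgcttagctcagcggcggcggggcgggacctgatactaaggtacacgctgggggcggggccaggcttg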

How the data were processed

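Libraries of right ventricles, 3 sham and 3 PAB, were grouped by their labels. For the gene values the authors used featureCounts, and for their comparison of PAB with sham the authors used DESeq2. The submitters' processing notes name HISAT2 2.0.5, StringTie 1.3.3b, featureCounts 1.5.0-p3 and GATK 3.7 and the build mm10. The deposited values are named FPKM but are a signal of another kind, reads per gene scaled by the authors with 1 size factor for each library. Of the values below 50 steps, 100% in each library were within 0.1 of a whole number of steps at any gene length. Gene length in bases and the authors' group means, fold changes, p-values and adjusted p-values are other columns of the deposited table; of these the gene length was used. Because the table is a selection, the total depth of a library is unknown.

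Values were taken as log2(value + 1). The model of limma 3.58.1 (R 4.3.3), with lmFit and a trended eBayes, covered all 617 genes at a minimum mean of 0.1, which removed 0 genes. The script was tested on simulated data. For the 4 members the estimate and its standard error are given as a description, without a test. Count tests were not run, and reads were recovered from the normalized values for description only. The text names the 4 members, the 3 listed genes nearest to each in pattern, the listed genes of 7 lists of lipid and prostaglandin genes and of 10 lists of cell type markers, and Nppa and Nppb. Of these lists 1 gene is not reported here and was left out of their counts. Members and lists were chosen with earlier results of these data known. The orders of the PAB libraries and the sequence motifs were chosen after the values were seen. Alternatives were other pseudocounts and filters, scaling by median ratios, an untrended eBayes, a replicate block and leaving out each library.

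Exon overlap was taken from the exon coordinates of the GENCODE annotation. Shared stretches of at least 100 bases at 95% identity were searched with blastn 2.17.0 in GENCODE transcripts of GRCm38. Of the listed genes, 615 were found there by identifier and 597 had the same coordinates and strand. Promoter sequences are from RefSeq (GRCm38.p6). Other steps used Python 3.11.15, numpy 2.4.6, pandas 2.3.3 and matplotlib 3.10.9.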

Additional observations from a re-analysis of the deposited data

How the results depend on the processing

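None of the 33 named genes changed sign under any alternative that was run. Median-ratio scaling, computed from the listed genes, raised PAB relative to sham by 0.59 (log2), and the log2 fold changes became -3.72 for Pla2g5, -4.03 for Ces1d, -0.65 for Slc27a1 and 2.17 for Slco2a1. They moved by 0.58, 0.32, 0.59 and 0.59, close to the shift itself for all but Ces1d. The same scaling left 478 listed genes past the adjusted threshold in limma, 290 higher and 188 lower (60.7% higher, against 47.0% of 617), and 550 without overlap, 288 above and 262 below. Ces1d, at 0 in PAB, moved to -7.61 with a pseudocount of 0.1 and to -2.90 with a pseudocount of 3. It has no value under a minimum mean of 10, since its mean lies below. Among the other 29 named genes, 23 moved by more than 1 SD under median-ratio scaling, 1 with a pseudocount of 0.1 and 1 with a pseudocount of 3. Apart from genes with low values, the shift was nearly the same for each gene. Small decreases therefore lost most in proportion, to -0.46 for Rxrg, -0.52 for C1qa, -0.56 for Pln, -0.56 for Etfb and -0.57 for Hcn2. Since the listed genes were all selected as changed, these values are no better estimate than the main ones. With a pseudocount of 0.1, 7 of the 12 nearest genes were shared. Leaving out each library in turn gave -4.60 to -3.98 for Pla2g5, -4.45 to -4.20 for Ces1d, -1.30 to -1.17 for Slc27a1 and 1.25 to 1.84 for Slco2a1.

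In a fit with a replicate block the log2 fold changes were -4.30, -4.35, -1.24 and 1.58 for Pla2g5, Ces1d, Slc27a1 and Slco2a1, with standard errors of 0.35, 0.84, 0.25 and 0.32, and limma called 616 listed genes. Across genes, the deviations from the group mean correlated between sham and PAB libraries of equal number by -0.06, -0.05 and -0.20 for replicates 1, 2 and 3. Libraries of unequal number were not compared, so these values cannot decide on pairing. Whether equal numbers share a litter, day or batch is not stated in the labels and was not tested. The edgeR and DESeq2 alternatives were not run. With 0 reads of Ces1d in each PAB library, depth limits its change to a lower bound.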
